A study of Mus musculus with 6 samples.

Results

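The genes described here encode the machinery that copies DNA in S phase: 47 genes for origin licensing, the replicative helicase, the polymerases, the sliding clamp, the supply of nucleotides and the packing of new DNA. Their probes were found through the RefSeq accession that each spot carries, and a probe was kept where the scanner software marked it as well above background on 3 or more arrays of the 6. All 47 genes had such a probe, 53 probes in all, among 17848 genes and 44955 probes kept in the series. The study measured RNA of sorted mouse skin cells on 1-colour Agilent arrays, with 3 male mice treated with vehicle (acetone) and 3 treated with DMBA (7,12-dimethylbenz[a]anthracene), a carcinogen that skin cells convert into a DNA-damaging form. All mice had been depilated before treatment, and cells were taken 3 days later from the epidermis as bright for K15-EGFP, a reporter driven by the keratin 15 promoter, high in integrin alpha 6 (ITGA6) and negative for Sca1 (ScaI in the labels). The labels call these cells hair follicle stem cells and hair germ, and they give neither the age nor the strain of the mice. Because depilation and the reporter were common to both groups, the comparison holds what DMBA added to the vehicle, and it holds no untreated skin.

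Before a cell can copy its DNA, the origin recognition complex, with CDC6 and CDT1, loads a ring of MCM proteins onto origins. CDC45 and the GINS proteins then turn that ring into the active helicase, and polymerases held by the clamp PCNA copy the opened strands. Most of these genes are transcribed as cells pass from G1 into S phase, under control of E2F transcription factors, and p53 can silence many of them through its target p21. In resting skin most follicle stem cells are quiescent, and removal of the hair is known to start a growth phase in which the hair germ divides first.

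None of the 47 replication genes passed the test for a difference between DMBA and vehicle. Their median log2 fold change (DMBA minus vehicle) was -0.04, beside -0.01 over all genes tested, with 22 genes above 0 and 25 below. The fold changes ran from -0.73 for the clamp loader gene Rfc1 to 0.36 for Orc2, a subunit of the origin recognition complex. In 44 of the 47 (93.6%) the fold change was smaller than 0.5 in either direction, as it was in 73.3% of all genes. The test was limma across all genes, which called 0 of 17848 genes at an adjusted p under 0.05 (0% of genes), and the smallest adjusted p among the 47 was 0.969. At limma's unadjusted p under 0.05, 0 of the 47 lay above vehicle and 0 below. Over all genes these shares were 2.73% above and 2.49% below.

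The width of the intervals shows which differences remain compatible with the values of 3 mice a group. In 32 of the 47 genes (68.1%) the 95% confidence interval lay inside a 2-fold difference in either direction, against 39% of all genes tested and 44.4% of genes that were well above background on all 6 arrays. All 47 replication genes were well above background on all 6 arrays, as were 85.4% of all genes tested. Each of the 47 thus has a measured value in every mouse. Their median residual SD was 0.28 on the log2 scale, against 0.40 over the genes measured on all 6 arrays. Differences inside a gene's 95% interval remain compatible with its values. The intervals are not a limit of detection: they hold for single genes, while the threshold was adjusted over all genes. In sorted bulk cells, fewer cells in S phase and less RNA per cell cannot be told apart.

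**Figure D1:**
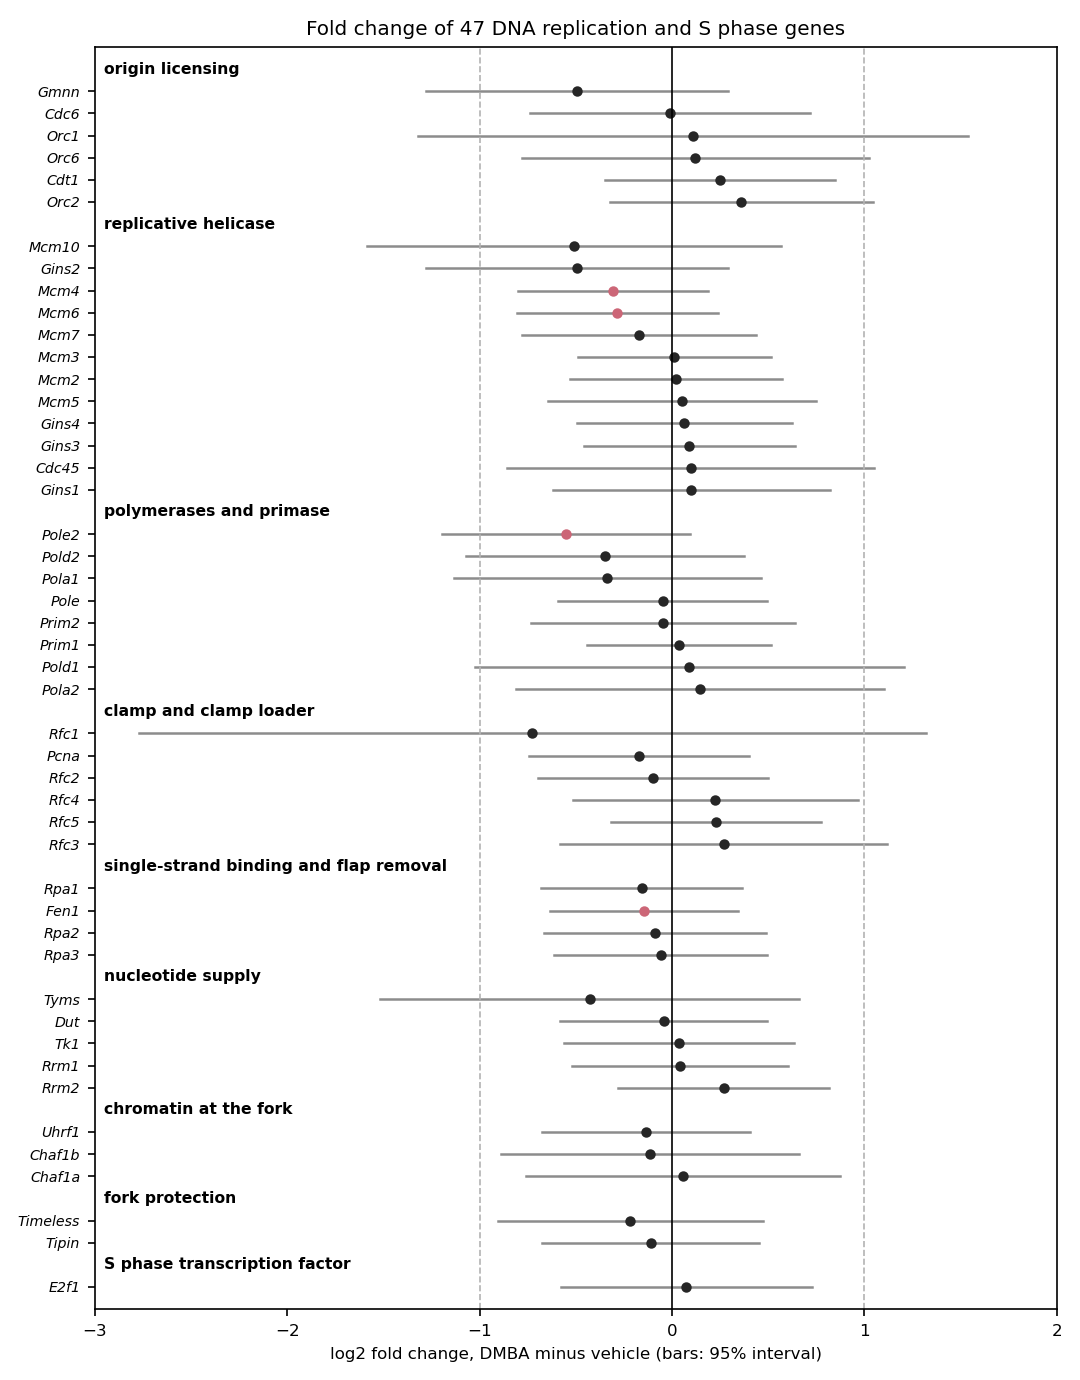
Log2 fold change (DMBA minus vehicle) of each of the 47 replication genes, grouped by role, with its 95% interval from limma over 3 mice a group. Dashed lines mark a 2-fold difference, red points are the 4 genes whose DMBA values all lay below their vehicle values, and every interval includes 0.

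The promoters of many of these genes hold the letters of E2F binding sites. RefSeq promoter windows of build GRCm38.p6, from 250 bases before to 50 after the start, were at hand for 38 of the 47 genes and searched on both strands for TTTGGCGC, TTTGCCGC, TTTCGCGC and TTTCCCGC. At least 1 of these words occurred in 13 of the 38 genes (34.2%), against 704 of 27025 genes with a window (2.6%). Of the 13, 9 held a word upstream of the start: the helicase genes Mcm5, Mcm6, Mcm7 and Gins3, the licensing genes Orc1 and Cdc6, and Pola1, Rfc3 and Uhrf1. The windows of helicase and licensing genes are shown because these genes carry the first steps of replication. Capitals mark the E2F words, on either strand, and in Mcm5 and Mcm6 a pair of words overlaps into 1 run. A further TTTGGCGC of Mcm6, 47 bases before the start, is not shown.
Mcm5 (chr8:75109336-75109387, plus strand): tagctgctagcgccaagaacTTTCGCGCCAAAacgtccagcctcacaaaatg
Mcm6 (chr1:128359784-128359835, minus strand): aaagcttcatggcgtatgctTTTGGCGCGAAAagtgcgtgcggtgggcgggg
Mcm7 (chr5:138172021-138172068, minus strand): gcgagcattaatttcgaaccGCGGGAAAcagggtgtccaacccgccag
Gins3 (chr8:95633498-95633545, plus strand): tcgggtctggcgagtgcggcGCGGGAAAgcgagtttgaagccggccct
Orc1 (chr4:108579407-108579453, plus strand): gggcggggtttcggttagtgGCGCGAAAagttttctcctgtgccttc
Cdc6 (chr11:98907993-98908040, plus strand): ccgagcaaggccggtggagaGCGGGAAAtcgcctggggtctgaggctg
The words lay between 27 bases (Orc1) and 165 bases (Mcm7) before the start in these windows. The median fold change was 0.01 over the 13 genes with an E2F word and 0.02 over the 25 without, and 6 and 12 of them were below 0. A match of letters describes the window and does not show that a factor binds there.

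Genes of origin licensing lay on both sides of 0. Cdc6, which loads the MCM ring, had values of 1.63, 0.97 and 1.62 in vehicle 1 to 3 and 1.13, 1.29 and 1.76 in DMBA 1 to 3, as log2 intensity minus the log2 of that array's 75th percentile. The groups overlapped and the fold change was -0.01 (95% interval -0.74 to 0.72), while a second and much dimmer probe, well above background on 4 of the 6 arrays, gave 0.98. Its partner Cdt1 and the complex subunits Orc2 and Orc6 had fold changes of 0.25, 0.36 and 0.12. Gmnn encodes geminin, the inhibitor that keeps CDT1 from licensing origins again. It had the largest fold change of this group in size, -0.49 (SE 0.32), with values of 1.17, 0.52 and 0.27 in vehicle and -0.17, 0.19 and 0.46 in DMBA. The DMBA mice lay low, but 1 of them reached above the lowest vehicle mouse. Orc1, the subunit made as cells leave G1, had a fold change of 0.11 with wide spread in both groups: -0.07, -0.21 and 1.14 in vehicle and -0.71, 0.96 and 0.94 in DMBA.

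The helicase genes were the most evenly measured large group, with a median residual SD of 0.22 and 9 of 12 intervals inside a 2-fold difference. Mcm2 had values of 1.22, 1.29 and 1.31 in vehicle and 1.32, 1.53 and 1.04 in DMBA, a fold change of 0.02 (95% interval -0.53 to 0.57). Mcm3 was as close, at 0.01, and Mcm5 had values of 2.97, 3.74 and 3.51 in vehicle and 3.66, 3.20 and 3.51 in DMBA, a fold change of 0.05. The groups overlapped in these 3 ring subunits.

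Mcm4 and Mcm6, subunits of the same ring, were the helicase genes whose groups did not overlap. Mcm4 had values of 5.18, 5.04 and 4.997 in vehicle and 4.86, 4.70 and 4.73 in DMBA, and its fold change was -0.31 (SE 0.20; unadjusted p = 0.181 with limma). Mcm6 had values of 4.82, 4.85 and 5.001 in vehicle and 4.80, 4.45 and 4.57 in DMBA, a fold change of -0.29 (SE 0.22). All 3 DMBA mice lay below all 3 vehicle mice in both genes, though in Mcm6 the nearest values were 4.80 and 4.82. Mcm7, the remaining ring gene with a value below 0, had a fold change of -0.17, and its DMBA 1 value of 5.38 was the highest of the 6.

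The genes that complete or assist the helicase varied more. Gins2 had a fold change of -0.49 (SE 0.32), while Gins1, Gins3 and Gins4, whose proteins form the same complex, lay at 0.10, 0.09 and 0.06. Cdc45 lay at 0.10. Mcm10, which helps to start the helicase, had values of -0.45, -0.83 and -0.34 in vehicle and -1.999, -0.47 and -0.68 in DMBA. The fold change of -0.51 rested on DMBA 1 and was -0.03 without that mouse.

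**Figure D2:**
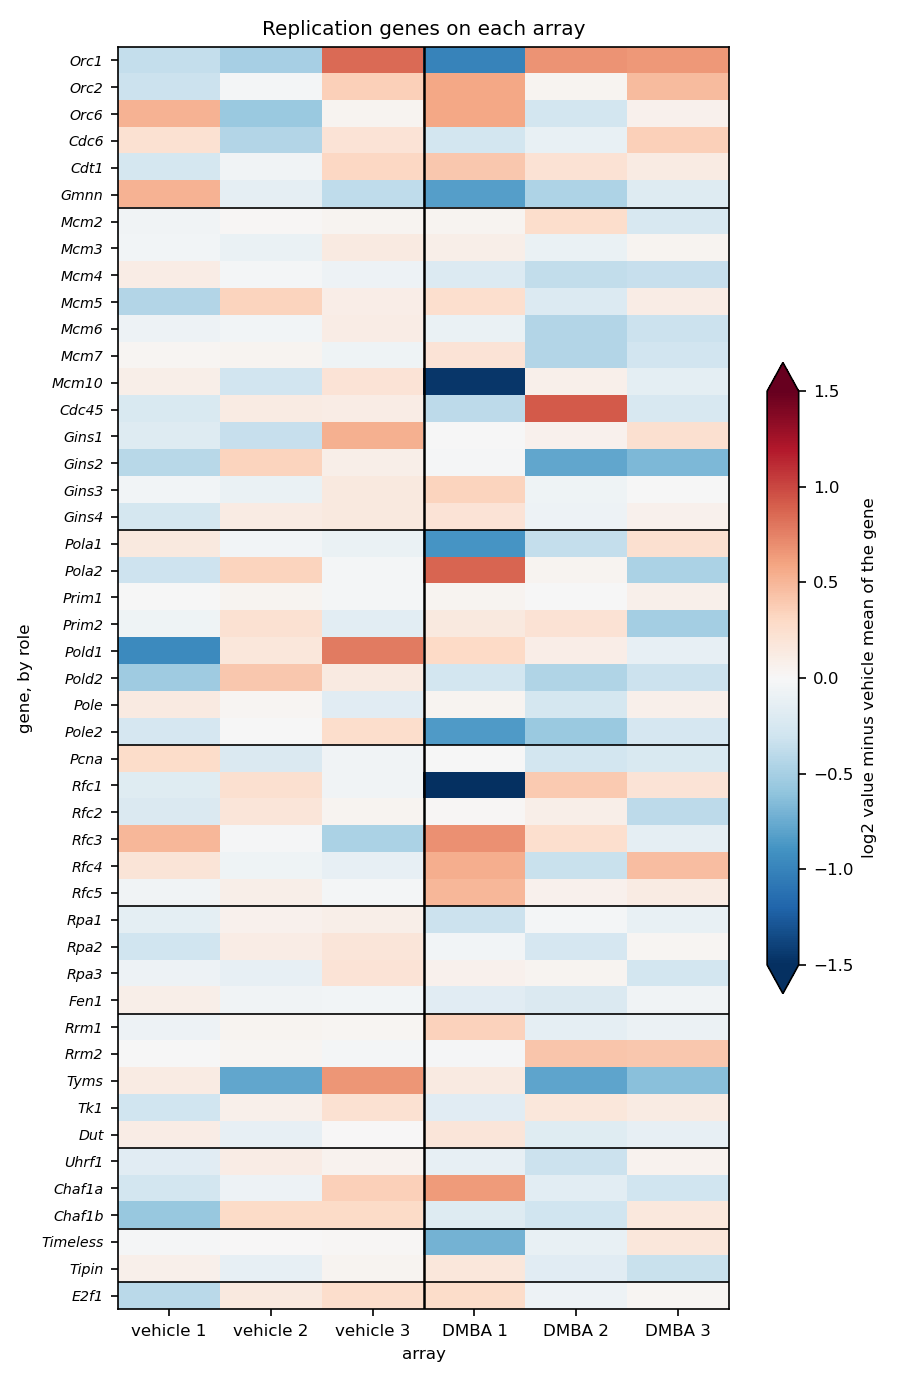
Log2 value of each replication gene on each array minus the mean of its vehicle values, with genes in rows by role and arrays in columns (blue below, red above, colour limited at 1.5 in either direction). Rows change sign from mouse to mouse within both groups, and the darkest cells, Rfc1 and Mcm10, are both in DMBA 1.

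Of the 8 polymerase and primase genes, 5 were below 0. Pole2, the second subunit of the leading-strand polymerase epsilon, had the lowest p-value of the 47 genes in limma's fit across all genes (unadjusted p = 0.0817, limma adjusted p = 0.969). Its values were 1.23, 1.48 and 1.75 in vehicle and 0.64, 0.93 and 1.23 in DMBA, a fold change of -0.55 (SE 0.27). The lowest vehicle mouse and the highest DMBA mouse had the same value to 2 decimals, so the groups were apart by almost nothing. Pole itself, the catalytic subunit, had values of 0.21, 0.11 and -0.09 in vehicle and 0.12, -0.18 and 0.16 in DMBA. Its fold change was -0.05, and a second probe gave 0.08. Prim1, which encodes the primase subunit that makes the RNA primer, had the narrowest range of all 47 genes, 0.11 over the 6 mice, with a fold change of 0.04. Pola1 and Pold2, subunits of polymerases alpha and delta, had fold changes of -0.34 and -0.35. Prim2, Pold1 and Pola2 lay at -0.05, 0.09 and 0.15.

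Pcna, the sliding clamp that holds polymerases on DNA and is itself a p53 target, had values of 4.50, 4.01 and 4.18 in vehicle and 4.23, 3.95 and 4.003 in DMBA. The groups overlapped, and the fold change was -0.17 (95% interval -0.74 to 0.40). Rfc1, the large subunit of the loader that puts the clamp on DNA, had the largest fold change of the 47 genes in either direction, -0.73 (SE 0.84), and the widest spread. It was measured at 1.68, 2.10 and 1.80 in vehicle and at -0.91, 2.25 and 2.06 in DMBA. DMBA 1 alone lay low, and without it the fold change was 0.30. The small loader subunits Rfc2, Rfc3 and Rfc5 had fold changes of -0.10, 0.27 and 0.23. Rfc4 had values of 1.052, 0.79 and 0.74 in vehicle and 1.41, 0.53 and 1.33 in DMBA, a fold change of 0.23, but its second probe gave -0.21, so that gene has no settled sign.

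Replication protein A, which coats single strands, and the flap nuclease FEN1 had small values below 0 in all 4 of their genes. Rpa1 had values of 2.07, 2.28 and 2.31 in vehicle and 1.90, 2.19 and 2.11 in DMBA, a fold change of -0.16 (SE 0.22), and Rpa2 and Rpa3 lay at -0.09 and -0.06. Fen1 had values of 2.12, 1.98 and 1.99 in vehicle and 1.87, 1.82 and 1.98 in DMBA. The groups of Fen1 did not overlap, but the nearest values were 1.984 in vehicle and 1.976 in DMBA. The fold change was only -0.15 (95% interval -0.63 to 0.34). With Mcm4, Mcm6 and Pole2 it made up the 4 genes (8.51%) whose DMBA values all lay below their vehicle values, and 0 of the 47 were apart in the other direction. Over all genes 5.17% were apart on the lower side and 4.87% on the higher side, which is 922 and 870 genes. A count of 4 of 47 is near that background and is not a result about these genes.

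**Figure D3:**
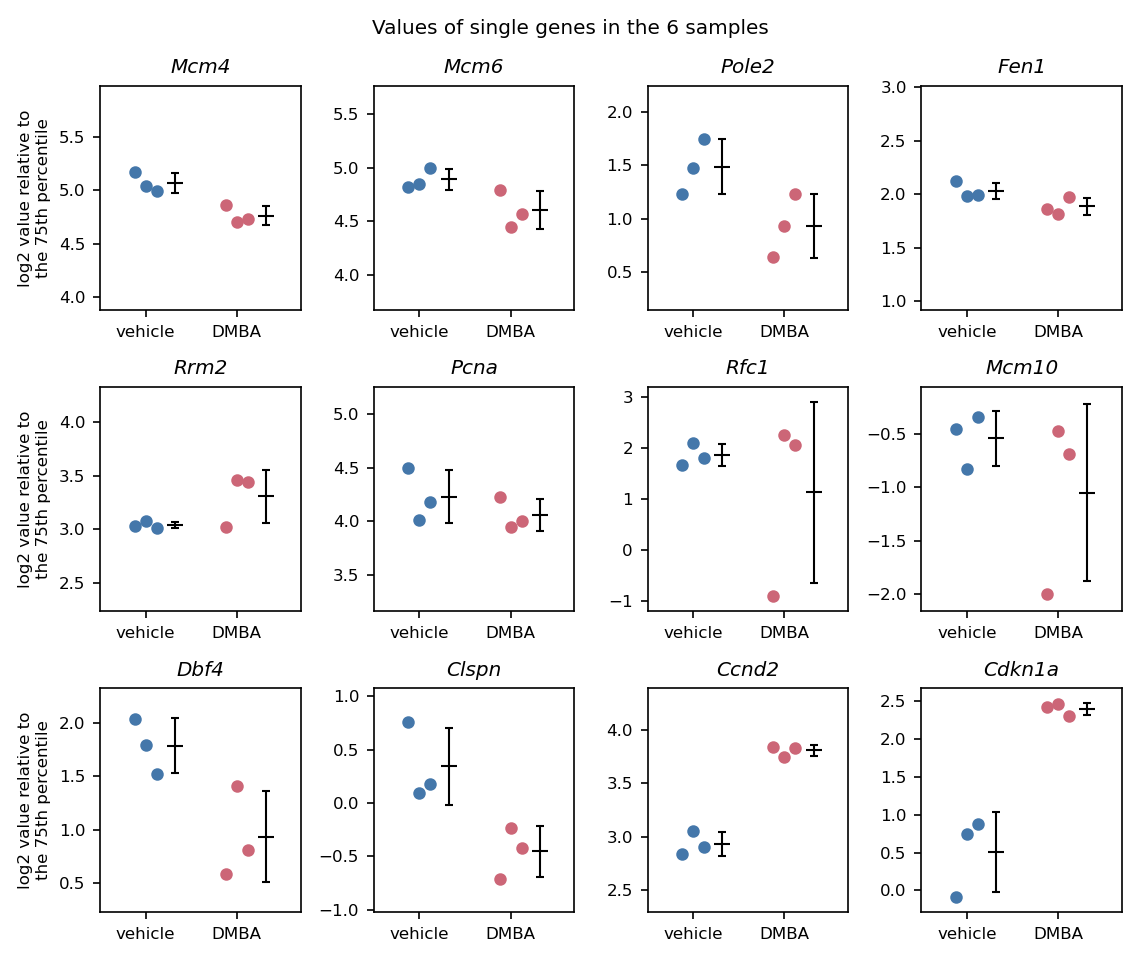
Log2 value relative to the 75th percentile of the array for 12 genes in each of the 6 mice, with the group mean and SD beside the points. Mcm4, Mcm6, Pole2 and Fen1 are the replication genes whose groups do not overlap, Rrm2 and Pcna overlap, Rfc1 and Mcm10 show the low DMBA 1 mouse, and Dbf4, Clspn, Ccnd2 and Cdkn1a are the genes outside the list that are described in the text.

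Among genes for the supply of nucleotides, Rrm2 had the largest fold change above 0. It encodes the small subunit of ribonucleotide reductase that is made in S phase. Its values were 3.03, 3.07 and 3.01 in vehicle and 3.02, 3.46 and 3.44 in DMBA, a fold change of 0.27 (SE 0.23) that 2 of the 3 DMBA mice carried. The large subunit gene Rrm1, thymidine kinase (Tk1) and dUTPase (Dut) lay at 0.04, 0.04 and -0.04. Tyms, the enzyme that makes thymidylate, had a fold change of -0.43 (SE 0.45), with values of -1.09, -1.99 and -0.54 in vehicle and -1.07, -1.995 and -1.84 in DMBA, which overlap.

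Genes that rebuild chromatin behind the fork or protect it lay near 0 as well. Uhrf1, which brings the maintenance DNA methyltransferase to new DNA, had values of 5.01, 5.28 and 5.23 in vehicle and 5.04, 4.85 and 5.22 in DMBA. Its fold change was -0.13 (SE 0.22) and -0.16 on its second probe. The histone chaperone genes Chaf1a and Chaf1b lay at 0.06 and -0.11. Timeless, whose product pairs with that of Tipin to protect stalled forks, had values of 2.82, 2.84 and 2.86 in vehicle and 2.14, 2.73 and 3.01 in DMBA. DMBA mice thus lay on both sides of the vehicle mice, and its fold change of -0.22 was 0.03 without DMBA 1. Tipin lay at -0.11. E2f1, the transcription factor that drives many of these genes and is one of them, had values of 1.68, 2.23 and 2.35 in vehicle and 2.37, 2.01 and 2.11 in DMBA, a fold change of 0.08 (95% interval -0.57 to 0.73).

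The list moved little as a whole on any array. The median over the 47 genes, relative to each gene's vehicle mean, was -0.07, 0.00 and 0.09 on vehicle 1 to 3 and 0.04, -0.11 and -0.06 on DMBA 1 to 3, so the groups overlapped. Over all genes that median was 0.05, -0.03 and -0.02 on vehicle 1 to 3 and 0.14, -0.07 and -0.09 on DMBA 1 to 3. DMBA 1 stood out most often: it was the lowest of the 6 arrays for 9 genes and the highest for 15. That array also had the lowest 75th percentile intensity, 1355 against 1758 to 2274 on the others. The median of 9 RNA quality and dissociation genes, relative to their vehicle means, was 0.89 on DMBA 1 and between -0.10 and 0.35 on the other arrays. Over the groups 7 of these 9 genes were above 0, with a median fold change of 0.50, and the immediate early gene Ier2 lay at 1.23 (limma adjusted p = 0.894). Marker list medians were also highest on DMBA 1 for fibroblasts (0.84), endothelium (0.80), melanocytes (0.70), leukocytes (0.38) and hair matrix and shaft (0.23). Those of the interfollicular and sorted cell lists were highest on vehicle 2 (0.77) and vehicle 3 (0.09). The part of RNA quality and of other cells in the Rfc1, Mcm10, Timeless and Mki67 values of DMBA 1 was not tested. Vehicle 1 lay on a slide of its own. Without it, 33 of the 47 genes were below 0 in place of 25, the median was -0.08, and 0 passed the unadjusted threshold. Without DMBA 1, 32 were below 0, and without vehicle 3, 21.

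A list of 40 other replication genes, none of them among the 47, was set beside these. Of the 40, 30 (75%) were below 0 (51.2% of all genes), with a median of -0.13, and 0 passed over all genes. At limma's unadjusted p under 0.05, 2 were lower and 0 higher, beside 2.49% and 2.73% of all genes. Dbf4, the activator of the kinase that fires origins, had values of 2.04, 1.80 and 1.53 in vehicle and 0.59, 1.41 and 0.81 in DMBA, and a fold change of -0.85 (SE 0.30; adjusted p = 0.897 with limma). Clspn, whose product claspin links stalled forks to the checkpoint kinase CHK1, had values of 0.76, 0.10 and 0.18 in vehicle and -0.71, -0.23 and -0.42 in DMBA, a fold change of -0.80 (SE 0.28; adjusted p = 0.897 with limma). All 3 DMBA mice lay below all 3 vehicle mice in both genes. Groups were apart on that side in 4 of the 40 genes (10%), beside 5.17% of all genes. Each gene kept an unadjusted p under 0.05 in 10 of 16 fits with limma. Without vehicle 1, which equals slide as a block, limma's unadjusted p was 0.0741 for Clspn and 0.0834 for Dbf4, and without DMBA 1 it was 0.0702 and 0.0742. The number below 0 in this list was 24 without DMBA 1 and also 24 without vehicle 3.

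Regulators of the G1/S step were set beside the replication genes as well. Cdkn1a, which encodes the p53-induced inhibitor p21, had values of -0.09, 0.74 and 0.88 in vehicle and 2.42, 2.46 and 2.30 in DMBA. Its fold change of 1.885 (SE 0.31) missed the threshold over all genes with limma (adjusted p = 0.445). The mean over its kept probes gave 2.42 (limma adjusted p = 0.368, the smallest of 16 fits). In all 16 fits its unadjusted p with limma was under 0.05. Of the 7 CDK inhibitor genes 3 were above 0 and 4 below, with a median of -0.43. Of 25 cyclins, kinases and other G1/S regulators, 16 were above 0 and the median was 0.17. At limma's unadjusted p under 0.05, 1 was higher, beside 2.73% of all genes. That gene was Ccnd2, a D-type cyclin that drives cells out of G1, with values of 2.84, 3.05 and 2.91 in vehicle and 3.84, 3.75 and 3.83 in DMBA. Its groups did not overlap, at a fold change of 0.87 (SE 0.20; adjusted p = 0.68 with limma). Ccnd2 also kept an unadjusted p under 0.05 in all 16 fits with limma. Groups were apart on the higher side in 4 of the 25 genes and on the lower side in 0, beside 4.87% and 5.17% of all genes. Of 30 mitosis genes 19 were below 0, with a median of -0.15 (-0.04 and 15 genes without DMBA 1). In 4 of the 30 (13.3%) all DMBA values lay below all vehicle values, beside 5.17% of all genes. On the higher side 0 were apart, beside 4.87%. At limma's unadjusted p under 0.05, 1 of the 30 lay below vehicle, beside 2.49% of all genes: Bub1, a spindle checkpoint kinase gene, with a fold change of -0.59 (limma adjusted p = 0.938). It kept that threshold in 8 of 16 fits, and without vehicle 1 limma's unadjusted p was 0.0666. Mki67, the proliferation marker, had a value of 2.83 on DMBA 1 and between 4.66 and 4.91 on the other arrays, so its fold change of -0.76 became -0.13 without that mouse.

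**Figure D4:**
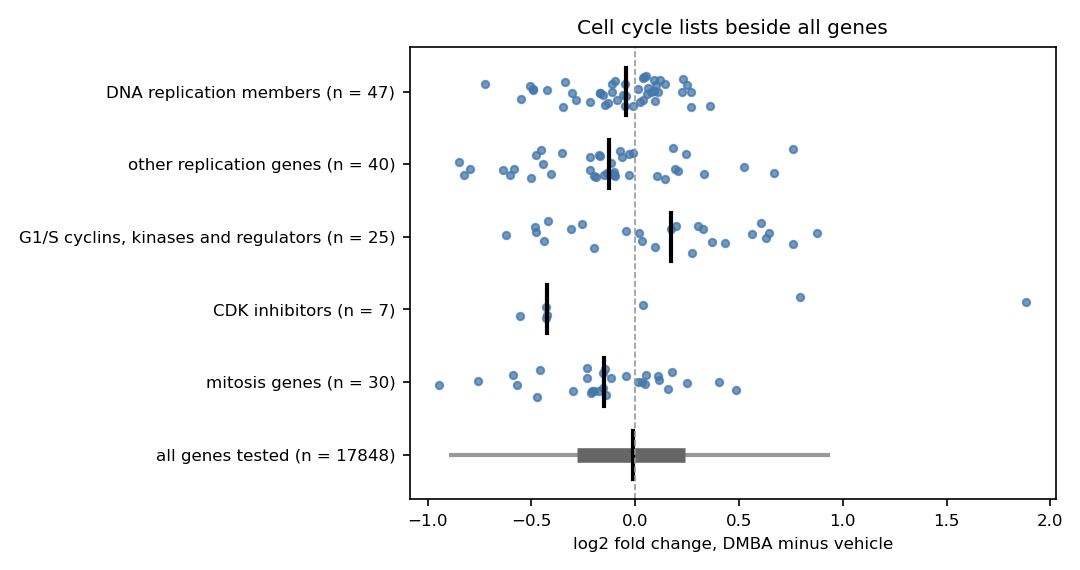
Log2 fold change (DMBA minus vehicle) of each gene in 5 cell cycle lists, with the list median as a black bar, above the spread of all 17848 genes tested (thick bar the quantiles 0.25 to 0.75, thin bar the quantiles 0.05 to 0.95). The 47 replication genes, from -0.73 to 0.36, lie within the thin bar, which runs from -0.90 to 0.94, and the point at 1.885 is Cdkn1a.

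The markers listed for the sorted cells were measurable on every array. Krt15, the gene of the reporter promoter, had a mean of 5.81 ± 0.10 in the vehicle mice and 6.01 ± 0.42 in the DMBA mice (SD, n = 3 each). Itga6 of the gate had 2.52 ± 0.14 and 2.33 ± 0.53. All 12 markers listed for the sorted cells were well above background on all 6 arrays. So were 85.4% of all genes and 7 of 7 interfollicular markers, so that count does not tell these cells from others. Of these 12, 5 were above 0 and 7 below, with a median of -0.05. In 2 of the 12 all DMBA values lay below all vehicle values, beside 5.17% of all genes. Lgr5, a marker of follicle stem cells, had values of 3.48, 3.10 and 3.34 in vehicle and 2.63, 2.75 and 2.63 in DMBA, a fold change of -0.64 (limma adjusted p = 0.894), and kept an unadjusted p under 0.05 in 10 of 16 fits. Markers of other cells were also measurable, and single genes lay above vehicle at limma's unadjusted p under 0.05, though none passed over all genes. Among them were Ly6a, the gene of the Sca1 antigen of the gate (log2 fold change 1.45), the MHC class II gene H2-Eb1 (2.30) and the matrix proteoglycan gene Dcn (1.51). The melanocyte gene Mlana (2.72) and the hair follicle gene Foxn1 (1.63) were also among them. So were Tyrp1 of melanocytes (3.35) and Tchh of the hair sheath and medulla (3.24), which were each well above background on 1 of 3 vehicle arrays and all 3 DMBA arrays. Their sizes depended on the background correction: with the normexp method they were 1.56 and 1.43. The groups of Mlana and of Tyrp1 overlapped. As lists, 4 of 7 interfollicular markers were above 0 (median 0.12), 4 of 9 melanocyte markers (-0.05), 6 of 11 hair matrix and shaft markers (0.03), 4 of 10 leukocyte markers (-0.08), 5 of 6 fibroblast markers (0.52) and 3 of 5 endothelial markers (0.05). Oca2 of melanocytes and Pdgfra of fibroblasts were well above background on no array. The summed linear level of the leukocyte list ran from 95.3 to 119 in vehicle and from 91.4 to 146 in DMBA, and that of the fibroblast list from 1.503 to 3.61 and from 3.15 to 4.22, so both overlapped between groups. The part of such cells in the values of the replication genes was not tested.

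**Figure D5:**
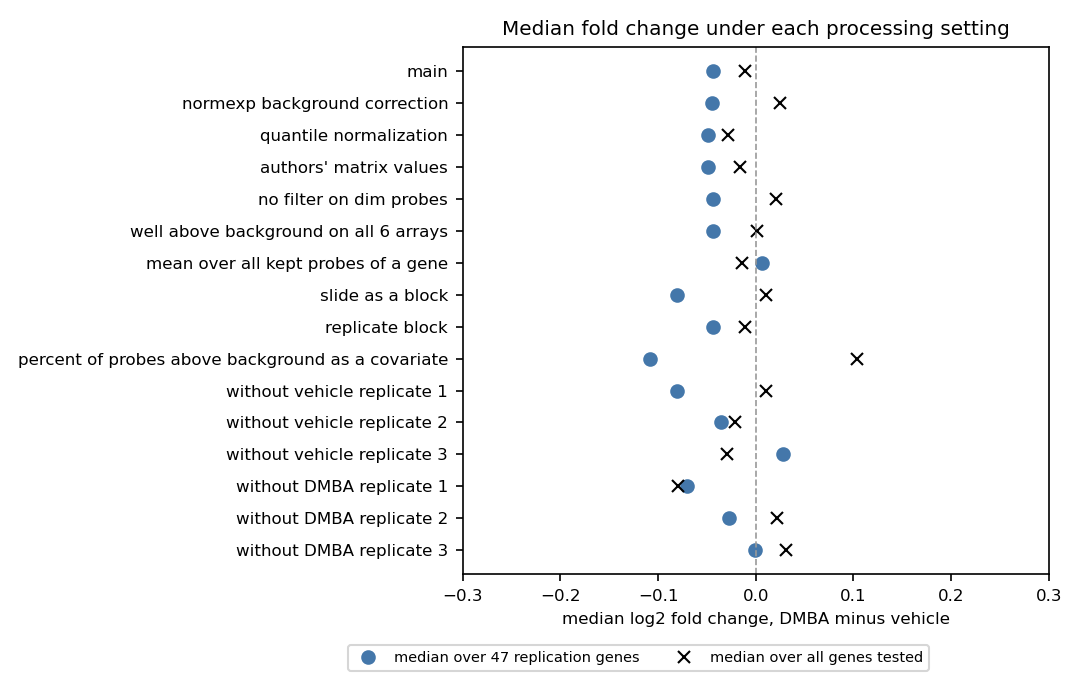
Median log2 fold change (DMBA minus vehicle) over the 47 replication genes (blue points) and over all genes tested (crosses) under the setting used in the text and 15 alternatives. The median of the replication genes lies between -0.11 and 0.03 throughout.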

How the data were processed

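RNA of 6 sorted cell samples was hybridised to 1-colour Agilent arrays (Cy3). Per the file headers and the submitters' processing notes, Agilent Feature Extraction 10.7.1.1 quantified the scans and background-corrected the deposited intensity of each spot. The headers name mm9 as the build of the probe annotation. The deposited matrix of the series holds linear intensity too. Its 75th percentiles of 1.004 to 1.007 show scaling by that percentile, its column medians were 0.154 to 0.172, and its log2 values followed the scanner values (r from 0.99992 to 0.99997 across probes). It was used as an alternative.

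Here, values were log2 processed intensity minus the log2 75th percentile of each array over spots that are not controls (R 4.3.3, limma 3.58.1, data.table in version 1.17.8). Outlier spots were set missing (45 probe values), spots of a probe were averaged, and 0 spots were saturated. Probes were named through RefSeq accessions in the GRCm38.p6 table of genes. Of 55681 probes, 28331 had a symbol. A gene with several kept probes was represented by the brightest. Levels are not compared between genes. The DMBA and vehicle samples were compared with limma's moderated test (lmFit, eBayes), two-sided and without covariates, with Benjamini-Hochberg adjustment at 0.05. The fit and its intervals were run on simulated data with independent normal noise. Those data held no array, slide or cell mixture effects, so that run checks the code and not the intervals of these arrays. Alternatives covered the background correction, normalization, the authors' matrix, the filter, the probe rule, slide, replicate block, a covariate and leaving out arrays. Genes given with all values were chosen by a rule: groups that do not overlap, the largest fold change of a role group, probes of opposite sign, and Pcna, Mcm2, Mcm5, Cdc6, Rrm2 and E2f1. From the other lists, genes with the smallest unadjusted p under 0.05 were eligible, with Cdkn1a, Mki67 and markers of the gate. Orc1 was added after its values were seen. The members and lists were chosen with earlier results of these data known. The series description says that samples came from different mice. Replicate numbers did not pair samples: deviations of same-numbered samples correlated at 0.018, -0.02 and 0.058. Arrays correlated across genes at 0.937 to 0.951 within groups and 0.934 to 0.948 between them, and 69.3% to 83.6% of probes were well above background. The number of arrays limits the precision.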

Additional observations from a re-analysis of the deposited data

How the results depend on the processing

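Under all 15 alternatives 0 of the 47 replication genes passed the threshold over all genes, and 0 were higher at unadjusted p under 0.05. The count lower at unadjusted p was 0 throughout except when each array's share of probes above background entered as a covariate, where it was 4 (Orc1 -0.97, Mcm10 -1.23, Pole2 -0.82 and Rfc1 -2.08; smallest adjusted p = 0.662 with limma), beside 3.14% of all genes. That covariate shifted the median of all genes to 0.10 and that of the replication genes to -0.11. The share was lower on DMBA 2 and DMBA 3 than on any vehicle array, so the covariate was not independent of treatment. When each array was left out in turn the median ran from -0.08 without vehicle 1 to 0.03 without vehicle 3. The mean over all kept probes gave 0.01 and quantile normalization -0.05. Signs of single genes were not stable: 13 genes were below 0 and 7 above 0 in all 16 fits, and 27 changed sign. Rfc4 is among the 7, although its second probe, which no fit used alone, gave -0.21. The replicate number as a block, which does not pair the samples, left the median at -0.04 and called 0 genes. With that block limma's unadjusted p became 0.0694 for Clspn, 0.0513 for Dbf4 and 0.0724 for Bub1, which lost the unadjusted threshold. Over all genes, 1 was called without vehicle 2 and 0 in the other fits. Slide as a block equals leaving out vehicle 1. The normexp correction used median spot signals, the raw signals at hand.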

Other observations

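Promoter windows of the neighbouring lists were searched for the same words, and no difference between lists was tested. The E2F words occurred in 12 of 35 other replication genes (34.3%) and in 7 of 17 G1/S regulators (41.2%), and in 2 of 26 mitosis genes (7.69%). The word TTTGAA, the core of the CHR element of mitotic genes, occurred on either strand in 20 of the 26 mitosis genes (76.9%), in 5 of the 38 replication genes (13.2%) and in 5466 of 27025 genes with a window (20.2%). The word CCAAT occurred in 23 of the 26 mitosis genes (88.5%), in 24 of the 38 replication genes (63.2%) and in 41.1% of all genes. A window can hold several words. These are counts of letters, and no binding was measured here.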
